A study of Mus musculus with 78 samples.

Results

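The cytosolic ribosomal protein genes were taken as the protein-coding genes on autosomes of the mouse annotation whose symbol has the form of a large or small subunit protein (Rpl or Rps with a number), together with Rplp0, Rplp1, Rplp2 and Rpsa. This rule gave 76 genes of 20807 protein-coding autosomal genes, of which 46 encode proteins of the large subunit and 30 proteins of the small subunit. They were examined in 72 peak lists from chromatin immunoprecipitation and sequencing of C2C12 myotubes, a mouse myoblast line that was differentiated and then synchronized by a shock with horse serum. The profiles were HA-EZH1, Bio-EZH1, SUZ12 and H3K27me3, each at 12, 16, 20, 24, 28 and 32 h after the shock with 3 biological replicates, which gives 18 libraries per profile. For HA-EZH1 the labels name the C3H/C2C12 line but neither an antibody nor a modified line. Bio-EZH1 is a biotinylated EZH1α captured on streptavidin in cells that carry a hairpin against Ezh1 together with BirA and EZH1α-Avi, and SUZ12 was precipitated from the same cells by the methods of the study, whereas the labels name only C3H/C2C12 with an antibody to EZH1 or SUZ12. H3K27me3 was precipitated with an antibody to the mark from C2C12 cells, for which the methods of the study name no modified line. A figure legend of the study gives wild-type cells for EZH1α, SUZ12 and H3K27me3 alike. Whether these profiles share a genotype therefore cannot be told. No untreated or unsynchronized group is among these lists. By the methods of the study both EZH1 profiles are of tagged EZH1α expressed from introduced constructs, and all groups share the serum shock.

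Ribosomal proteins assemble with ribosomal RNA into the small and the large subunit of the ribosome, and nearly all of their genes are transcribed in every growing cell. Their messenger RNAs start with a terminal oligopyrimidine (TOP) tract, a run of C and T at the transcription start site (TSS), through which mTOR signalling controls their translation. EZH1 and SUZ12 are subunits of Polycomb repressive complex 2, which methylates lysine 27 of histone H3. The mark H3K27me3 is a hallmark of silent developmental genes, so promoters of ribosomal protein genes are a class where it is usually low, and EZH1 has been described at active promoters as well.

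A gene was counted with a peak in a library when any deposited peak reached within 3 kb of its TSS, the 5′ end of the gene record. The call of a bound gene asked for such a peak with a q-value under 0.01 in each of the 3 replicates of a time point, with at least 1 bp common to the 3 peaks. Each peak carries a fold enrichment, the ratio of its signal to the background modelled by MACS2. Read depth is unknown, so no counting error can be given, and errors are those between the 3 replicates. HA-EZH1 lists held 2347 to 16366 peaks, and Bio-EZH1, SUZ12 and H3K27me3 lists 8539 to 19827, 21425 to 40379 and 45120 to 70797. The 9 HoxD genes, a classic Polycomb target, had a H3K27me3 peak in all 18 libraries. At 1 or more time points Bio-EZH1 bound 8 of them, 88.9% beside 12.4% of all protein-coding autosomal genes, and SUZ12 bound 9, 100% beside 14.8%. HA-EZH1 bound only 2 (Hoxd9 and Hoxd10), 22.2% beside 10.2%, and no HoxD gene had a HA-EZH1 peak at 20 or 24 h. Peaks hold no expression, so the identity of the myotubes could not be checked against marker transcripts, and whether a ribosomal protein gene was transcribed at a given time was not measured here.

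The promoters on which the results below turn are shown first, from GRCm38.p6 (the assembly of mm10) as RefSeq gives it, 5′ to 3′ on the strand of the gene. Rps27 held a HA-EZH1 peak in the most libraries of all ribosomal protein genes, Rps26 had a strong peak at 12 h upstream of its TSS, Rpl4 had its strongest peak at 28 h, and Rpl26 carried H3K27me3 upstream in every library. Capitals mark the pyrimidine tract at the start and any match to the motifs described further down. The stretch of Rps27 is chr3:90213629-90213724 on the minus strand, from 76 bases before the RefSeq start to 20 after it. The stretch of Rps26 is chr10:128626748-128627038 on the minus strand, the bases that all 3 peaks at 12 h share upstream of the TSS. The stretch of Rpl4 is chr9:64173257-64173404 on the plus strand, and that of Rpl26 is chr11:68901436-68901585 on the plus strand.
Rps27: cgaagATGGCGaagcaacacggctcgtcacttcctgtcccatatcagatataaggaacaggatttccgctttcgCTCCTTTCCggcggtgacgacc
Rps26: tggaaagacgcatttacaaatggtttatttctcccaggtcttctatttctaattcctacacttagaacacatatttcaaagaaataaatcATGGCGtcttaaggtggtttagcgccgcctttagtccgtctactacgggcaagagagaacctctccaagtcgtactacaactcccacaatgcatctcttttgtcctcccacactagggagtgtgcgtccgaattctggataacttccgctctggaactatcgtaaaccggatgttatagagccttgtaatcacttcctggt
Rpl4: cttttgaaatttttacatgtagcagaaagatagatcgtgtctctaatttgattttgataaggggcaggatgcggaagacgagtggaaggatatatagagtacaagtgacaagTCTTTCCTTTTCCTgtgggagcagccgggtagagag
Rpl26: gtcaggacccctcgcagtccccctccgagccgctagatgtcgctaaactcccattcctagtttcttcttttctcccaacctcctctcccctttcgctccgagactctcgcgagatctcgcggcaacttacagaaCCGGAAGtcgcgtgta
In Rps27 the tract is 9 bases long and begins 2 bases before the start, and in Rpl4 it is 14 bases long and begins 18 bases before the start. Rpl26 holds no run of 8 or more at that place.

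HA-EZH1 peaks were found at ribosomal protein promoters at 12, 16, 28 and 32 h and were nearly absent at 20 and 24 h. Of the 76 genes, 44 had a peak in at least 1 of the 18 libraries, that is 57.9% beside 30.5% of all protein-coding autosomal genes, and 32 had none. The 3 replicates held 19, 18 and 24 of the genes at 12 h and 5, 8 and 8 at 16 h. Both 20 h and 24 h gave 0, 0 and 1. The numbers were 9, 9 and 11 at 28 h and 20, 20 and 13 at 32 h. The replicates of 12 h and 32 h overlapped each other, and both time points lay apart from 20 and 24 h.

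The share of all protein-coding genes with a HA-EZH1 peak near the TSS fell and rose with that of the ribosomal protein genes. At 12 h it was 13.1% ± 3.38 (SD, n = 3) over all genes and 26.8% ± 4.23 over the ribosomal protein genes. For 16 h these means were 7.76% ± 1.03 and 9.21% ± 2.28. They were 1.56% ± 0.284 and 0.439% ± 0.760 for 20 h, and 1.44% ± 0.0809 and 0.439% ± 0.760 for 24 h. They came to 3.57% ± 0.0894 and 12.7% ± 1.52 for 28 h, and to 11.8% ± 2.80 and 23.2% ± 5.32 for 32 h. The mean ratio of the ribosomal protein share to that of all genes was 2.07, 1.22, 0.342, 0.298, 3.56 and 1.97 from 12 to 32 h. The 20 and 24 h libraries held more peaks than the others, 9125 to 16366 against 2347 to 5234, so that few promoter peaks went with long lists. The part of this difference between libraries in the time course was not tested.

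**Figure D1:**
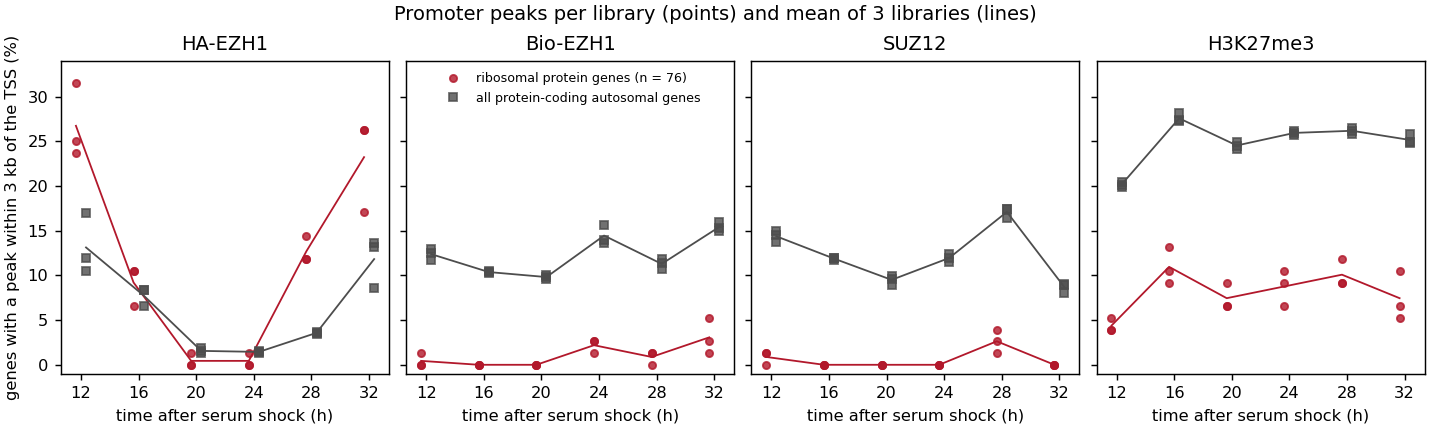
Share of genes with a peak within 3 kb of the TSS (y axis, percent) against time after serum shock (x axis, h) in each profile, with points for the 3 libraries of a time point and lines for their mean, for the 76 ribosomal protein genes (red circles) and all protein-coding autosomal genes (grey squares). The red mean lies above the grey one for HA-EZH1 at 12, 16, 28 and 32 h, and below it at every time point for Bio-EZH1, SUZ12 and H3K27me3.

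By the stricter call, 9 ribosomal protein genes were bound by HA-EZH1 at 12 h, which is 11.8% beside 6.7% of all protein-coding autosomal genes. With replicate 2 left out, so that 2 peaks sufficed, the number was 14, or 18.4% beside 8.48%. The genes bound at 12 h included Rpl22, Rpl23a, Rpl32, Rps26, Rps27a, Rps27l, Rps28 and Rpsa. At 16 h the number was 3 (among them Rpl19 and Rpl23a), or 3.95% beside 4.19%. None was bound at 20 h, beside 0.538% of all genes, or at 24 h, beside 0.461%. A further time point, 28 h, had 3 (Rpl4, Rpl6 and Rps27), or 3.95% beside 1.89%, and 32 h had 7 (among them Rpl7, Rpl12, Rpl17, Rpl23a, Rplp2 and Rps27), or 9.21% beside 6.42%. At 1 or more time points 17 of the 76 genes were bound, 22.4% beside 10.2%. No ribosomal protein gene was bound at all 6 time points. The background holds silent genes too, since the lists do not tell which genes were transcribed.

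Rps27 (chr3:90212522-90213651, minus strand) encodes a zinc finger protein of the small subunit and had a peak in 10 libraries. Its folds were 2.86, 2.01 and 2.67 at 12 h, 4.59, 5.40 and 4.84 at 28 h, and 3.57, 3.63 and 3.98 at 32 h. A single library at 24 h had a peak of 2.25 with its summit 2008 bp downstream of the TSS. The 28 h folds were above those of 32 h, and these above those of 12 h, with no overlap between the 3 groups. At other protein-coding genes the median fold was also highest at 28 h, with 3.65 against 2.80 at 12 h and 2.67 at 32 h. The 12 h peak of 2.01 ended 262 bp from the TSS and had its summit 263 bp downstream. The summits at 28 and 32 h lay at -194 to -84 bp from the TSS, upstream of the printed stretch, and the peaks reached across the TSS. Rab13, a gene of a small GTPase, starts on the other strand at -44 bp from the TSS of Rps27, so that the peak cannot be given to either gene of the pair.

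Rps26 (chr10:128624534-128626747, minus strand), whose protein lies at the exit of the messenger RNA channel, had a peak in 9 libraries. Its folds at 12 h were 4.22, 3.62 and 4.36, with summits at -158 to -91 bp from the TSS, inside the printed stretch. Folds were 2.43 and 2.78 in 2 libraries at 16 h, 2.52 in 1 library at 20 h, and 2.22, 2.41 and 2.78 at 32 h. The folds at 12 h were above all others of this gene. RefSeq starts Rps26 241 bp downstream of that TSS.

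Rpl23a (chr11:78180932-78183584, minus strand), a protein of the large subunit that lines the mouth of the exit tunnel, had a peak in every library of 12, 16 and 32 h and in none of 20, 24 and 28 h. Its folds were 2.73, 3.02 and 3.10 at 12 h, 2.15, 2.08 and 2.50 at 16 h, and 3.02, 2.52 and 2.71 at 32 h, with summits 106 to 223 bp downstream of the TSS. The folds overlapped between 12 and 32 h. The gene hosts 3 small nucleolar RNAs in its introns.

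Rpl4 (chr9:64173375-64178666, plus strand), a protein that reaches into the exit tunnel, moved in another way, with no peak in any library at 12 h. At 28 h its folds were 4.65, 4.63 and 4.93, against 1.78 and 1.98 in 2 libraries at 16 h and 2.14 and 2.25 in 2 libraries at 32 h. The 28 h peaks had summits 102 to 150 bp downstream of the TSS, past the end of the printed stretch, and ranked at the 90.4 to 92.5 percentile of fold in their lists. Zwilch, a mitotic checkpoint gene, starts on the other strand at -271 bp. Rps27a, which encodes a small subunit protein fused to ubiquitin, had peaks in 7 libraries with folds of 3.17, 2.95 and 2.32 at 12 h and 1.64 to 2.97 at the other times. The gene Clhc1 starts 159 bp downstream of the TSS of Rps27a.

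**Figure D2:**
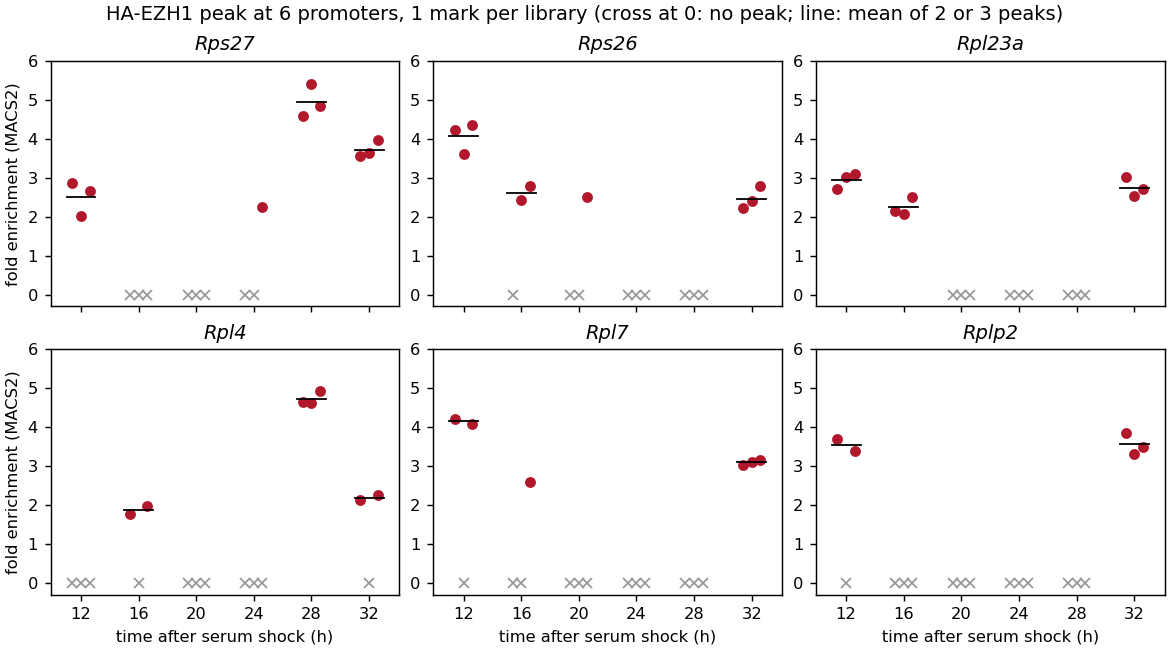
Fold enrichment of the HA-EZH1 peak (y axis) in each library against time after serum shock (x axis, h) at 6 ribosomal protein promoters, with a point for each library, a cross at 0 for a library with no peak, and a line for the mean of 2 or 3 peaks. Rpl4 reached 4.63 to 4.93 at 28 h with no peak at 12 h, whereas Rpl23a had no peak at 28 h.

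The highest mean folds at 12 h belonged to Rpl7, Rps26, Rplp2, Rpl13a and Rpl19. Rpl7 had folds of 4.22 and 4.08 in 2 of the 3 libraries at 12 h, 2.59 in 1 at 16 h, and 3.02, 3.11 and 3.16 at 32 h. Rplp2 stood at 3.69 and 3.38 at 12 h and at 3.86, 3.32 and 3.50 at 32 h, with no peak in between. Rpl13a, which also takes part in translational silencing outside the ribosome, had 3.87 and 3.08 at 12 h alone. Rpl19 had 2.86 and 3.41 at 12 h, 1.83, 2.52 and 2.43 at 16 h, and 2.14 in 1 library at 32 h. With 2 of 3 replicates at 12 h, Rpl7, Rplp2, Rpl13a and Rpl19 did not meet the call at that time.

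The stalk of the large subunit, through which translation factors are recruited, is built of Rplp0, Rplp1 and Rplp2. Rplp2 had a peak in 5 libraries, Rplp0 in 2 libraries at 12 h with folds of 3.11 and 2.32, and Rplp1 in none. Rpsa, a small subunit protein also known as a laminin receptor, had folds of 2.42, 2.31 and 2.18 at 12 h and 2.38 and 2.00 in 2 libraries at 32 h. Of the paralogs, Rps27l, a target of p53, had a peak in 6 libraries, with 2.86, 2.82 and 3.07 at 12 h. Rpl3l, the form of Rpl3 in striated muscle, and Rpl10l and Rpl39l, which are known from testis, had none.

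The genes without a HA-EZH1 peak in any library included Rpl10l, Rpl11, Rpl13, Rpl15, Rpl21, Rpl23, Rpl27, Rpl28, Rpl29, Rpl3, Rpl34, Rpl35, Rpl35a, Rpl36 and Rpl37. Rpl11, which together with Rpl5 binds the 5S RNA and inhibits MDM2, thus differed from Rpl5, which had a peak in 4 libraries. Of these 32 genes, 7 had a HA-EZH1 peak of any library between 3 and 10 kb away. Among them was Rpl3, with its nearest peak 7925 bp from the 5′ end of its record. Counted from the starts of all annotated transcripts, 18 genes were bound at 1 or more time points, 23.7% beside 11.7%, with Rpl3 among them. By that count Rpl3 was also 1 of 10 genes called over time among 27 tested, 37% beside 46.1% of all tested genes. At the edge of the window, Rpl17 and Rpl18 were counted with nearest peaks 2000 and 2547 bp from the TSS, and Rpl36 and Rpl28 were left out with peaks 3281 and 3465 bp away. For Rpl18 the 2 summits lay 2782 and 2549 bp downstream of the record's 5′ end but within 82 bp of the start of another annotated transcript. Sphk2 starts 2545 bp downstream of the same end, so that these peaks cannot be given to either gene. The 4 summits of Rpl17 lay 214 to 323 bp from a second annotated start.

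The sets of 12 and 28 h had few genes in common. With a peak in 2 or 3 replicates as the criterion, 19 genes were present at 12 h, or 25% beside 12.1% of all genes, and 5 at 16 h, or 6.58% beside 7.05%. The later sets held 10 genes at 28 h, or 13.2% beside 3.23%, and 17 at 32 h, or 22.4% beside 11.2%. Rps27 and Rps27a were the 2 genes present at both 12 and 28 h, which is 10.5% of the 12 h set and 20% of the 28 h set. Over all protein-coding genes the overlap of the 2 sets was 12.1% and 45.2%. Between 12 and 32 h 12 genes were shared, 63.2% and 70.6% of the sets, against 67.9% and 73.3% over all genes. The 28 h set included Rps3, Rps9, Rps18, Rps27 and Rps27a of the small subunit and Rpl4, Rpl6, Rpl8 and Rpl41 of the large one. At 28 h a mean of 20.0% of the small subunit genes and 7.97% of the large subunit genes had a peak per library, whereas at 32 h these shares were 20.0% and 25.4%. Whether the subunits differ was not tested.

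A change with time was tested gene by gene from the number of libraries with a peak at each time point, by an exact permutation test with Benjamini-Hochberg adjustment over all 3260 genes with a peak in 3 to 15 libraries. Of the 76 genes, 25 were in this range, 19 had a peak in fewer libraries and 32 in none. The test called 14 of the 25 at an adjusted p under 0.05, which is 56% and near the 59% of all tested genes. Rpl23a had the smallest value the 18 libraries allow with 9 peaks (exact permutation p = 0.000411, adjusted p = 0.00276). Adjusted p was 0.0143 for Rps27 (exact permutation test), 0.0169 for Rps28, 0.0185 for Rps20, and 0.0224 for Rplp2, Rps18 and Rpsa. Further calls were Rpl4, at an adjusted p of 0.0438 in the exact permutation test, and Rpl12, Rpl17, Rpl22 and Rps3, at 0.0498. Rps28 had a peak in all libraries of 12 and 32 h and in 1 of 28 h, and has the start of Ndufa7 on the other strand at -10 bp. Rps20 had its 3 peaks at 12 h, and Rps18 its 5 peaks at 28 and 32 h. Vps52 starts 189 bp downstream of the TSS of Rps18, and Lrsam1 55 bp downstream of that of Rpl12. Rps26, at an adjusted p of 0.0566 in the exact permutation test, and Rpl7, at 0.0900, were not called.

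Without the 20 and 24 h libraries, an exact permutation test over the remaining 12 libraries called 0 of 32 ribosomal protein genes and 0 of 3932 genes at an adjusted p under 0.05, with 8 ribosomal protein genes and 1120 genes at an unadjusted p under 0.05. The smallest p of that design was 0.00649 and the smallest adjusted p 0.0898, and whether the calls depend on these libraries or on their number cannot be told apart.

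Summits of HA-EZH1 lay close to the TSS. Over the 166 pairs of a ribosomal protein gene and a library with a peak, the median summit was 154.5 bp downstream of the TSS, and 91.0% lay within 500 bp on either side. In other protein-coding genes the median was 155 bp and 70.8% lay within 500 bp. A peak covered the TSS itself in at least 1 library for 23 of the 76 genes, or 30.3% beside 13.4% of all protein-coding autosomal genes. The peaks were weaker than those at other promoters by rank, with a median fold of 2.51 against 2.79 and a median percentile in their own list of 25.1 against 41.9. The median percentiles were 38.1 and 45.7 at 12 h, 28.9 and 62.7 at 28 h, and 21.8 and 40.4 at 32 h. Of the 166 peaks, 88.0% had a q-value under 0.01.

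**Figure D3:**
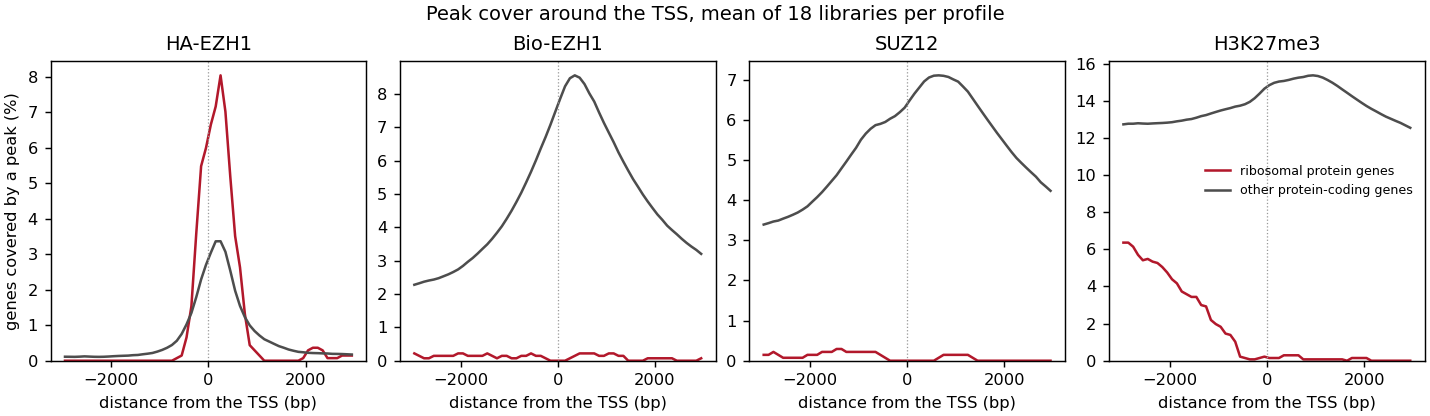
Share of genes covered by a peak (y axis, percent, scaled in each panel) against the distance from the TSS along the gene's strand (x axis, bp), as the mean of the 18 libraries of each profile in bins of 100 bp, for ribosomal protein genes (red) and other protein-coding genes (grey). HA-EZH1 cover was highest 250 bp downstream of the TSS, at 8.04% and 3.37%. H3K27me3 cover of ribosomal protein genes was highest in the outermost bin shown, 2950 bp upstream, at 6.36%. It was 0.146% just downstream of the TSS. In other genes H3K27me3 cover was highest 950 bp downstream, at 15.4%, and 14.8% just downstream of the TSS.

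Bio-EZH1 and SUZ12, which mark the Polycomb complex in the biotin line, were seen near few ribosomal protein genes. At no time point did Bio-EZH1 meet the call of a bound gene at any of the 76, beside 12.4% of all genes, nor did SUZ12, beside 14.8%. Single Bio-EZH1 libraries held a peak at 0 to 4 of the 76 genes and single SUZ12 libraries at 0 to 3. Over all libraries 7 genes had a Bio-EZH1 peak (Rpl38 in 5 libraries, Rpl3 in 3, Rpl5 and Rpl26 in 2, Rpl37a, Rps7 and Rpsa in 1) and 5 a SUZ12 peak (Rpl3, Rpl26 and Rpl38 in 2, Rpl5 and Rps3 in 1). That is 9.21% beside 25.5% of all genes for Bio-EZH1 and 6.58% beside 24.3% for SUZ12. At 32 h Rpl38 had a Bio-EZH1 peak in each replicate, with folds of 2.83, 2.73 and 4.57, but the 3 peaks had no base in common. None of these peaks covered the TSS of a ribosomal protein gene in any library, whereas a Bio-EZH1 peak covered on average 7.63% and a SUZ12 peak 6.35% of all TSSs per library. In Bio-EZH1 2 ribosomal protein genes and in SUZ12 0 were in the range for the test over time. That exact permutation test called 0 of 1513 genes (0%) for Bio-EZH1, where 353 genes and 1 ribosomal protein gene had an unadjusted p under 0.05, and 45.9% of 2262 genes for SUZ12.

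H3K27me3 was seen near few ribosomal protein genes, and it lay upstream of them. In single libraries 3 to 10 of the 76 genes had a peak within 3 kb, or 3.95% to 13.2%, beside 19.9% to 28.1% of all genes. Bound at 1 or more time points were 7 genes, 9.21% beside 22.9%, among them Rpl5, Rpl26, Rpl35a, Rpl38, Rps19 and Rps26. Within 1 kb of the TSS, 3 were bound (Rpl5, Rpl26 and Rpl38), or 3.95% beside 18.7% of all genes. Of the 12 genes with a peak in any library, 10 had it centred upstream of the TSS. A H3K27me3 peak covered the TSS of 1 gene, Rpl3l, in 2 libraries, so the mean share of TSSs covered per library was 0.146% beside 14.7% of all protein-coding genes. When a peak over the TSS itself was asked for, no ribosomal protein gene was bound, beside 15.7% of all genes, a rule added after the data were seen.

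Rpl26 (chr11:68901583-68906989, plus strand), Rpl38 (chr11:114668524-114672331, plus strand) and Rpl5 had H3K27me3 in all 18 libraries. Rpl38 is known for its part in the translation of Hox messenger RNAs, and Rpl26 for that of p53. At Rpl26 the nearest edge of the peak lay a median of 1152.5 bp upstream of the TSS, beyond the stretch printed above, at Rpl38 702.5 bp and at Rpl5 1056.5 bp. The fold at Rpl38 was 2.08, 2.23 and 2.11 at 12 h and 3.55 to 4.66 in the other 15 libraries. At Rpl26 it was 2.39, 2.09 and 2.19 at 12 h and 3.08 to 4.52 later, and at Rpl5 2.03 to 2.33 and 2.45 to 3.67. All 3 genes thus had their lowest folds at 12 h, with no overlap, as did 77% of the 2825 genes with a peak in all 18 libraries. The median fold of whole H3K27me3 lists was 2.15 to 2.27 at 12 h and 2.47 to 2.90 at later times.

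Rps26 and Rpl35a were the 2 of 7 tested ribosomal protein genes where the presence of a H3K27me3 peak within 3 kb changed with time. That is 28.6% beside 41.5% of the 2851 genes tested. Rps26 had a peak in 0, 3, 1, 3, 3 and 0 libraries from 12 to 32 h (exact permutation test, adjusted p = 0.0192). Rpl35a, whose mutation like that of Rps19 is a cause of Diamond-Blackfan anaemia, had one in 0, 3, 3, 3, 3 and 1 libraries (exact permutation test, adjusted p = 0.0253). With the replicate number as a block, or with 1 replicate number left out, neither gene was called, nor was any other gene. Where a peak was counted, its nearest edge lay 1642 to 2890 bp from the TSS at Rps26 and 1696 to 2968 bp at Rpl35a. Presence was thus set by the edge of a broad peak beside the 3 kb limit. Whether an absent peak lay just beyond that limit was not tested. By this count Rps26 had a H3K27me3 peak in all libraries of 16, 24 and 28 h. It had HA-EZH1 in all libraries of 12 and 32 h, with HA-EZH1 in 3, 2, 1, 0, 0 and 3 libraries. The nearest edge of the H3K27me3 peak of Rps26 stood a median of 2302.5 bp upstream of the TSS, much further than the 12 h HA-EZH1 summits. Whether these patterns are linked was not tested.

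Promoter sequences from RefSeq were matched for 56 of the 76 genes and for 15687 protein-coding autosomal genes, each from 250 bases before to 50 after the start. Of the genes described above, Rpl17, Rpl23a, Rpl7, Rps20 and Rps27a are among the 20 without an entry. For 42 of the 56 the RefSeq start lies within 100 bp of the TSS used for peaks, and for the others it lies further away. A run of 8 or more C or T on the gene's strand within 20 bases of the start was present in 28 of 56 ribosomal protein promoters (50%) beside 20.5% of all. CCGGAAG, a core site of ETS factors such as GABP, was found on either strand in 41.1% beside 12.6%, and ATGGCG, the core of the YY1 site, in 30.4% beside 11.6%. GGGCGG, bound by Sp1, was in 57.1% beside 48.8%, the E-box CACGTG in 8.93% beside 8.10%, and TATAAA in 5.36% beside 12.9%. Among the 1096 matched protein-coding genes bound by HA-EZH1 at 12 h, ATGGCG was in 24.5%, GGGCGG in 60.8% and TATAAA in 6.11%. In these genes CCGGAAG was in 15.6% and the pyrimidine run in 18.1%. In the printed stretches ATGGCG stands at -71 to -66 from the RefSeq start of Rps27 and at -201 to -196 from the annotated TSS of Rps26, and CCGGAAG at 4 to 10 from the RefSeq start of Rpl26.

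Promoters with and without a HA-EZH1 peak were set side by side, with no test. The pyrimidine run was present in 48.5% of the 33 matched genes with a peak and in 52.2% of the 23 without. The shares were 36.4% and 47.8% for CCGGAAG, 27.3% and 34.8% for ATGGCG, and 51.5% and 65.2% for GGGCGG. The median GC content was 59% and 55.7%.

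Position in the genome and gene structure were set beside the peaks as well. Of the 27 ribosomal protein genes that host a small nucleolar RNA, 70.4% had a HA-EZH1 peak in any library and 33.3% were bound at some time, against 51.0% and 16.3% of the other 49. Of the 20 genes with another protein-coding TSS within 3 kb, 30% were bound, against 19.6% of the other 56. Of the 13 with an opposite-strand TSS within 300 bp, 38.5% were bound. At 28 h 30.8% of these 13 had a peak per library, against 12.7% of all 76, which include the 13. Over all protein-coding autosomal genes 10.2% were bound, and at 28 h 3.57% had a peak per library. A peak at the start of the neighbouring gene also counts within 3 kb. Shares over all genes of the same structure were not computed, and none of these differences was tested.

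Other genes of the translation machinery were set beside the cytosolic ribosomal protein genes by HA-EZH1 at 1 or more time points. Of the 78 mitochondrial ribosomal protein genes 46.2% were bound, beside the 22.4% of the cytosolic ones. By time point the mitochondrial genes were bound in 25, 15, 1, 0, 11 and 26 cases from 12 to 32 h, against 9, 3, 0, 0, 3 and 7 cytosolic ones. Of 18 other genes with TOP messenger RNAs 6 were bound (33.3%), among them Pabpc1, the poly(A) binding protein, with a peak in all libraries of 12, 16 and 32 h and a mean fold of 4.15. Of 24 ribosome biogenesis genes 6 were bound (25%), among them Polr1a, the largest subunit of RNA polymerase I, with peaks in 10 libraries. Of 259 autosomal genes annotated as ribosomal protein pseudogenes 1 was bound (0.386%). H3K27me3 was called at 16.7% of the mitochondrial, 11.1% of the TOP, 8.33% of the biogenesis genes and 17.8% of the pseudogenes. These lists differ in size and none was tested.

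**Figure D4:**
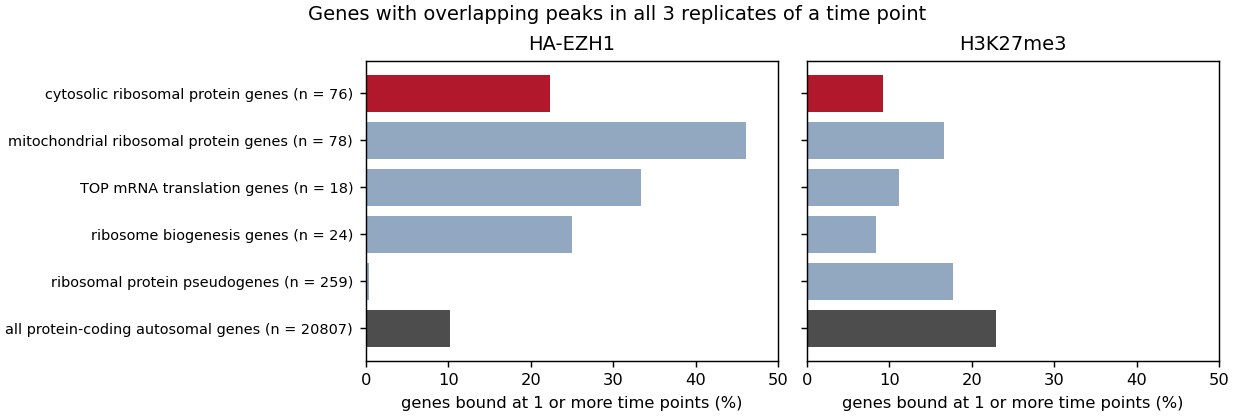
Share of genes bound at 1 or more time points (x axis, percent, from 0) by HA-EZH1 (left) and H3K27me3 (right) in each gene list, with the number of genes in brackets. The cytosolic ribosomal protein genes (red) stand at 22.4% and 9.21%, all protein-coding autosomal genes (dark grey) at 10.2% and 22.9%.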

How the data were processed

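Members and gene lists were chosen with earlier results of these data known. By the authors' notes, BBDuk trimmed the reads, BWA 0.7.17 mapped them to mm10 and BDGP6, and Picard and SAMtools 1.7 removed duplicates and unpaired reads before peaks were called per library with MACS2 2.2.4. For Bio-EZH1 the study names cells with BirA alone as the control, and the labels list inputs for HA; which control entered each peak call is not given in the sources used here. For each peak the authors deposited a fold enrichment (a ratio), p- and q-values as −log10, and a score, 10 times −log10 q; largest q is 0.05 in narrow and 0.1 in H3K27me3 broad lists. Spike-in factors and the 6 HA input samples were not used here. SUZ12 files carry names that could stand for a streptavidin pull-down; groups follow the labels. Reads in sequence shared with processed pseudogenes may have been lost to the mapping filter, which was not tested.

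TSSs came from GENCODE M21 on GRCm38. Where a window held several peaks, the nearest was described. Python 3.11.15, numpy 2.4.6 and scipy 1.17.1 were used. The exact permutation test was checked with simulated peaks. P-values measure the spread between these libraries. Alternatives were q-value, window, TSS, peak number, neighbours, replicates and the replicate number as a block. Text names stalk proteins and Rpsa, paralogs, 6 genes with HA-EZH1 in most libraries, 5 with the highest fold at 12 h, up to 15 without a peak, those bound by other profiles, and the first 8 called over time; Rpl12, Rpl17, Rpl22, Rps3 and others were named after their values were seen. Some genes that these rules select are counted but not reported here by name.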

Additional observations from a re-analysis of the deposited data

How the results depend on the processing

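In all 90 alternatives were computed for 11 results, and 68 left a count within 1.5 times the main one or the median summit within 1 SD between libraries. Where the main count was 0, a count that stayed 0 was included in these 68. This holds for HA-EZH1 at 24 h and for the bound genes and the test over time of Bio-EZH1 and SUZ12. The number 68 is therefore no measure of how stable those results are. Without ribosomal protein genes that have another TSS within 3 kb, 11 of 56 genes were bound by HA-EZH1 at 1 or more time points. That is 19.6% beside 10.2% of all genes. Of 18 such genes in the test over time 9 changed, or 50% beside 59%. With only peaks over the TSS 9 of the 76 were bound, or 11.8% beside 4.85%. H3K27me3 was called at 4 genes at a q-value under 0.001 (5.26% beside 18.2% of all genes) and 3 in a window of 1 kb (3.95% beside 18.7%). By the peak's midpoint it was called at 2 (2.63% beside 13.7%), and over the TSS at 0 (beside 15.7%). With equal numbers of the strongest peaks 9 genes changed with time in HA-EZH1 (42.9% of those tested beside 64% of all), and 8 when genes with a peak in 1 to 17 libraries were tested (18.2% beside 24.2%). Leaving out 1 replicate number gave 11 to 14 genes bound by HA-EZH1 at 12 h (14.5% to 18.4% beside 7.22% to 9.2% of all genes). At 1 or more time points 21 were bound each time (27.6% beside 12.6% to 13.1%), and 0 at 24 h (beside 0.601% to 0.606%). Bio-EZH1 gave 0 to 2 genes (0% to 2.63% beside 13.3% to 13.8%) and SUZ12 0 to 2 (0% to 2.63% beside 15.8% to 16.6%). H3K27me3 gave 7 to 8 (9.21% to 10.5% beside 24% to 24.2%). Leaving replicate 2 out gave the 14 genes at 12 h and the 2 SUZ12 genes, and leaving replicate 1 out the 2 Bio-EZH1 genes. In the test over time, leaving out 1 replicate number gave 0 calls for HA-EZH1, Bio-EZH1 and H3K27me3, among the ribosomal protein genes and among all genes. The smallest p with 2 libraries at each of 6 times is 0.0216, and the smallest adjusted p was 0.111 to 0.117 in HA-EZH1. Without the 20 and 24 h libraries it called 0 for HA-EZH1, and no gene at all (smallest adjusted p 0.0898). Using every deposited peak is the main setting of that test. Same-numbered libraries did not deviate together (correlations of -0.148 to 0.0314 in HA-EZH1), so the numbers do not pair them. With the replicate number as a block the test called 4 ribosomal protein genes in HA-EZH1 (among them Rps27, Rpl23a and Rps28), or 16% of those tested beside 33.5% of all. It called 0 in H3K27me3 and 0 in Bio-EZH1, where it called no gene at all (smallest adjusted p 0.0656 and 0.202), and in SUZ12 no ribosomal protein gene was in the tested range. The median summit stayed between 142 and 181 bp downstream. The read depth behind each peak is unknown, so an absent peak may be a weak one.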

Other observations

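The ribosomal protein genes on chromosome X fall outside the rule and are given here as values. Rps4x, Rpl10 and Rpl36a had a H3K27me3 peak within 3 kb of the TSS in all 18 libraries and Rpl39 in 14, with median folds of 2.90, 2.76, 2.76 and 2.51. The peak lay over the TSS itself in 12 libraries for Rps4x, 15 for Rpl10, 14 for Rpl36a and 7 for Rpl39. Of all 948 protein-coding genes of chromosome X, 38.1% had a H3K27me3 peak in all 18 libraries, against 13.6% of the autosomal ones. HA-EZH1 had a peak at Rpl10 in 3 libraries, at Rpl36a and Rpl39 in 1 each at 28 h, and at Rps4x in none. Among autosomal genes outside the rule, Fau, whose product is a ubiquitin-like protein fused to Rps30, was bound by HA-EZH1 at 12 h, Rpl22l1, the paralog of Rpl22, had a peak in 5 libraries, and Rack1, a scaffold of the small subunit, had none.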
